A study of Mus musculus with 12 samples.

Results

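Transcripts of cholesterol synthesis and of its control by SREBP2 were measured in primary mouse hepatocytes through 29 genes chosen by name. They comprised 20 enzymes of the pathway, 4 genes of SREBP2 and its sterol sensors, and 5 genes of uptake control, intracellular transport and esterification. All 29 were found by their Ensembl identifiers among the 55414 genes of the count table, and all 29 passed the filter on low counts together with 14919 genes in all. RNA was sequenced in 12 libraries, 3 in each of 4 groups. The groups were hepatocytes labelled Hnf4a KO given the compound MJ041, Hnf4a KO hepatocytes given DMSO vehicle, wild-type (WT) hepatocytes given MJ041, and WT hepatocytes given DMSO vehicle. HNF4A is the nuclear receptor that maintains the gene programme of hepatocytes, and the series title calls MJ041 a candidate ligand in work on HNF4A dysfunction in sepsis. MJ041 is known here by its code name alone, with no dose or duration in the labels. Nor do the labels say how the knockout was made, which exons were removed, or the strain, sex or age of the mice. Whether the 3 libraries of a group stem from different mice is not stated, and p-values therefore cover the spread between libraries, which may be technical.

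Cholesterol is built from acetyl-CoA through mevalonate, isoprenoid diphosphates, squalene and lanosterol. The transcription factor SREBP2 (Srebf2) activates most genes of this route and is itself held in the endoplasmic reticulum with its escort SCAP when sterols are abundant, because SCAP then binds INSIG1 or INSIG2. When sterols run low, SCAP carries SREBP2 to the Golgi, where proteases free its active part. The liver is a main site of this synthesis, and hepatocytes pass the product on to lipoproteins, bile acids and stored esters.

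The libraries held between 16740761 and 17902832 counts. Levels are given in CPM, counts scaled by TMM to a common library size, with the standard deviation (SD) over the 3 libraries of a group. The targeted gene was lower but present in the KO libraries. Hnf4a averaged 65.1 ± 3.57 CPM in KO with vehicle and 123.5 ± 12.6 CPM in WT with vehicle (SD, n = 3 each), and the log2 difference of -0.92 passed (adjusted p = 8.9e-06). Hepatocyte markers were abundant in every library, although the summed level of 10 of them was 28040 to 33250 CPM in KO with vehicle and 59020 to 64300 CPM in WT with vehicle. Most of that sum was Alb, with means of 18880 CPM in KO with vehicle and 44810 CPM in WT with vehicle. Both of the WT libraries given MJ041 and numbered 1 and 2 stood apart from the other 10 in summed markers of stellate and endothelial cells. Their summed level of 15 stellate cell markers was 92.9 and 100.8 CPM, against 143 to 209 CPM in the KO libraries, 151.9 CPM in the third WT library given MJ041 and 148.9 to 187 CPM in WT with vehicle. Much of these 2 sums was Ecm1 (36.0 and 39.6 CPM) and Cxcl12 (21.9 and 27.9 CPM). Reln went the other way, at 19.2 and 16.0 CPM, against 7.45 to 13.4 CPM in WT with vehicle. Of the 11 stellate markers tested, 8 were negative and 3 positive for MJ041 against vehicle in WT cells, and none passed. Of the markers, the stellate genes Lrat and Hand2 were at 0 in 2 libraries and 1 library, the endothelial gene Clec4g and the bile duct gene Cftr were at 0 in 1 library each, and the bile duct gene Sctr was at 0 in all 12.

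Promoter sequence could be shown for 23 of the 29 genes, and 5 promoters follow because their genes carry the results below. Hmgcs1 and Cyp51 are SREBP2 target enzymes, Pmvk was lower in KO and among the genes that rose with MJ041, and the paralogs Insig1 and Insig2 moved in opposite directions in KO cells. Each window runs from 250 bases before to 50 bases after an annotated start, on the strand of the gene, in RefSeq's build GRCm38.p6, which is not the build of the counts. Capitals mark 3 motifs on either strand, which are the sterol regulatory element core TCACNCCAC, the NF-Y box CCAAT, and the E-box CACGTG. The window of Pmvk is the first of 2 annotated for that gene and that of Insig2 the first of 3.
Hmgcs1 promoter, chr13:119690101-119690400, forward strand: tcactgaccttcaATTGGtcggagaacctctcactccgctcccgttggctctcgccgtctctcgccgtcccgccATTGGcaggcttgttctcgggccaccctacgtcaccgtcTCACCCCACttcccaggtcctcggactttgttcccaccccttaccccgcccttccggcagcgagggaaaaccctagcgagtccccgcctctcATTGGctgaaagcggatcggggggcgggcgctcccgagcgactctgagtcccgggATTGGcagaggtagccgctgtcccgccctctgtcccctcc
Pmvk promoter, chr3:89454291-89454590, forward strand: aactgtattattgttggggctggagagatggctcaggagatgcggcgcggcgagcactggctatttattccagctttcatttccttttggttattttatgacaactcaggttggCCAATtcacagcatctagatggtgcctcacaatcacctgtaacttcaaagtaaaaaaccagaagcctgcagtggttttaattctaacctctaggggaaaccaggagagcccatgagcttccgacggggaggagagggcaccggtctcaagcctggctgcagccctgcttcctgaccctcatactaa
Cyp51 promoter, chr5:4104648-4104947, reverse strand: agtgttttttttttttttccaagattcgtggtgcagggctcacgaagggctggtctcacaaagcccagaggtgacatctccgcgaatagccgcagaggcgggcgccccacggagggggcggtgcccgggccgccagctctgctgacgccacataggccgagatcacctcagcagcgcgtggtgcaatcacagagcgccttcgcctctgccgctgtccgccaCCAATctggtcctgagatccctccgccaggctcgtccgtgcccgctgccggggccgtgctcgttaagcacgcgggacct
Insig1 promoter, chr5:28071162-28071461, forward strand: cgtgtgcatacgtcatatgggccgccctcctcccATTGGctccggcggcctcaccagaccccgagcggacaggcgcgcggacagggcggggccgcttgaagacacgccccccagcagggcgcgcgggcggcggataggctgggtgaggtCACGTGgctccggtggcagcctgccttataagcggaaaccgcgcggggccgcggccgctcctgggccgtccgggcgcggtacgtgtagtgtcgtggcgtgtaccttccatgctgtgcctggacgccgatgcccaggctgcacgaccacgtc
Insig2 promoter, chr1:121332540-121332839, reverse strand: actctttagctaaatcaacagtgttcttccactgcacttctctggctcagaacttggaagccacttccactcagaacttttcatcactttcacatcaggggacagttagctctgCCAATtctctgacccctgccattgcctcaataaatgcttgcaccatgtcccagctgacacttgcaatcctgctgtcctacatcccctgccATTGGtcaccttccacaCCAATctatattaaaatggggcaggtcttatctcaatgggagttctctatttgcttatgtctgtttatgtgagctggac
The sterol regulatory element core, in the spelling searched, occurred in the promoter of Hmgcs1, starting 137 bases before its start, and in no other of the 23 genes, against 1.49% of the 10824 tested genes with a promoter entry. The NF-Y box occurred in 21 of the 23 genes (91.3%), against 42.7% of the tested genes. In Hmgcs1 it was found 4 times, and the sterol regulatory element core lay between the second and the third of them. The E-box was found in 5 of 23 genes (21.7%), namely Insig1, Sc5d, Hsd17b7, Dhcr7 and Scap, against 11.6% of the tested genes. The GC box GGGCGG, which is not capitalised, was found in 21 of 23 genes (91.3%), against 65.6%. The stretch of an HNF4A direct repeat spelled CAAAGTCCA was found in no window of the 23 genes, against 0.647% of the tested genes. Motifs were searched on both strands, neighbouring matches may share bases, and a match is a description of the window, not of binding. No promoter window was read for Fdft1, Fdps, Npc1, Soat2, Sqle and Stard4. The search of the pathway genes left out entries on a chromosome that the shares of the tested genes kept, so the sides were not filtered alike.

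Levels per kilobase of exon differed widely among the genes in WT cells with vehicle. Npc2, the lysosomal protein that hands cholesterol to NPC1, was highest at 39.1 CPM per kilobase. The enzymes Sc5d (26.8 CPM per kilobase), Hmgcs1 (24.6 CPM per kilobase) and Cyp51 (24.0 CPM per kilobase) followed. The lowest were Mylip at 1.28, Fdps at 1.59 and Idi1 at 2.05 CPM per kilobase. Exon lengths were the bases covered by any annotated exon of a gene in the GRCm38.p6 annotation. They can exceed the length of the transcript in use, so the order depends in part on the annotation. Neighbours in this order were not tested against each other. Some counts are uncertain in themselves, because exons of Fdps share 26.7% of their bases with Gm43738 and those of Tm7sf2 share 12.1% with Vps51 on the same strand. Exons of Fdft1 (18.3%, with Ctsb), Scap (13.2%) and Hmgcs1 (12.1%) overlap genes on the opposite strand, and the strand setting of the counting is not given in the sources used here. Acat2 has a near copy, Acat3, with which it may share reads.

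The first comparison asked how the pathway stood in KO cells relative to WT cells when both had vehicle. The pathway split: 7 of the 29 genes were higher in KO cells and 7 were lower, with an adjusted p below 0.05 by edgeR's quasi-likelihood test. In the same comparison 27.5% of the 14919 tested genes were higher and 26.9% were lower, so the share of called genes in the pathway, 24.1% in each direction, was near that of all genes. The median log2 fold change was 0.0080 over the 29 genes and -0.0020 over all tested genes. Among the 8 enzymes from acetyl-CoA to geranylgeranyl diphosphate, 3 rose and 1 fell, and among the 12 enzymes of squalene and sterol synthesis 3 rose and 2 fell. Of the regulators 1 rose and 2 fell, and of the 5 genes of uptake control, transport and esterification none rose and 2 fell.

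The sterol sensors moved in opposite directions. Insig1, which retains SCAP and is itself a target of SREBP2, had 25.0, 33.3 and 32.1 CPM in KO with vehicle, against 38.6, 52.8 and 54.9 CPM in WT with vehicle. Every KO library was below every WT library, and the log2 fold change was -0.69 ± 0.15 (SE, n = 3 per group, adjusted p = 0.0015). Insig2, its paralog, had 96.4, 92.1 and 89.2 CPM in KO with vehicle, against 53.8, 70.9 and 60.5 CPM in WT with vehicle. Here every KO library was above every WT library, with a log2 fold change of 0.59 ± 0.13 (adjusted p = 0.0017).

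The transcription factor itself did not pass the test. Srebf2 had 105, 115 and 109.6 CPM in KO with vehicle, against 114, 119 and 107 CPM in WT with vehicle. The groups overlapped, and the 95% interval of the log2 fold change reached from -0.20 to 0.10 (adjusted p = 0.57). Scap, the escort of SREBP2, had 110.2, 121 and 115 CPM in KO with vehicle, against 130.3, 134 and 125 CPM in WT with vehicle. The KO libraries were all lower, by a small amount (-0.17 ± 0.07, adjusted p = 0.042), and that call was lost without WT vehicle replicate 1 (adjusted p = 0.080) and with no filter on low counts (adjusted p = 0.11).

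**Figure D1:**
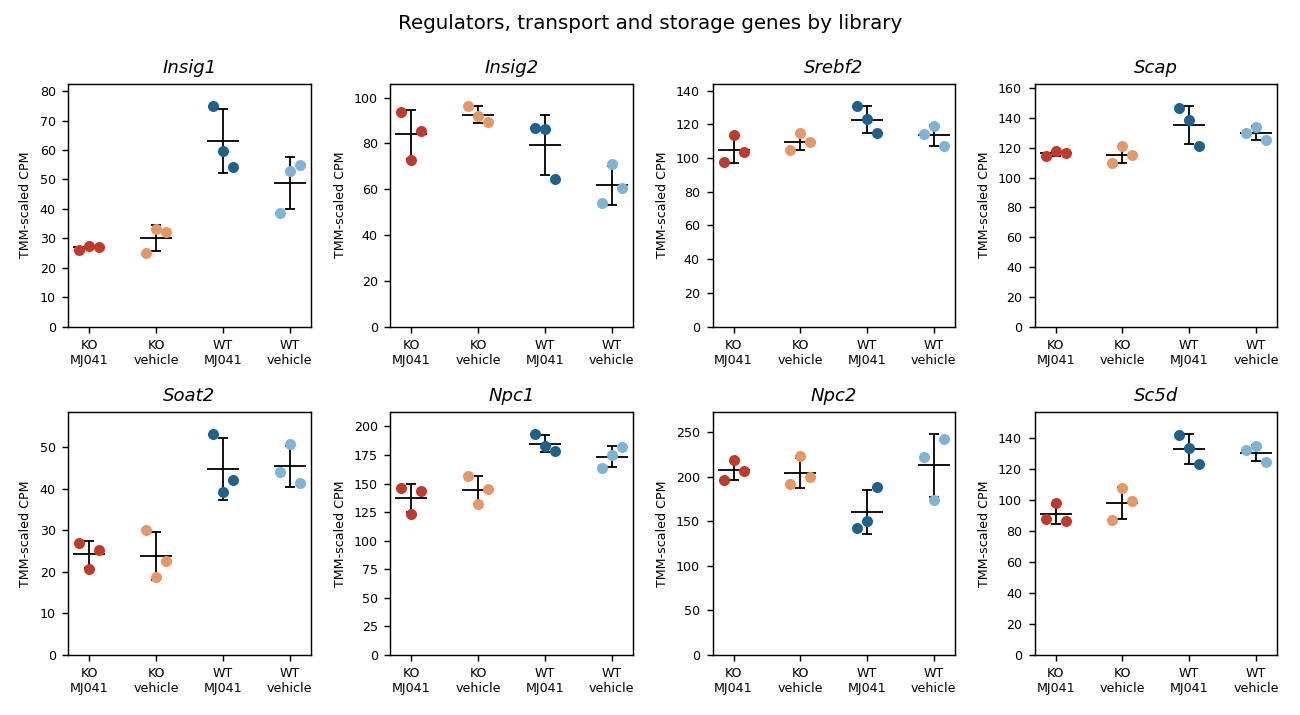
Level of 8 genes (TMM-scaled CPM, linear axis from 0) in each of the 12 libraries, with points for libraries, a bar for the group mean and whiskers for 1 SD. Insig1, Soat2, Npc1 and Sc5d lie lower in both KO groups than in both WT groups, Insig2 in vehicle lies higher in KO than in WT, and Srebf2 overlaps between genotypes with vehicle.

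Among the enzymes, the larger rises fell on consecutive steps from diphosphomevalonate to farnesyl diphosphate. Mvd, the diphosphomevalonate decarboxylase, had 13.4, 10.9 and 10.7 CPM in KO with vehicle, against 7.33, 7.94 and 8.84 CPM in WT with vehicle. The groups did not overlap, and the log2 fold change was 0.54 ± 0.15 (adjusted p = 0.0091). Fdps, the farnesyl diphosphate synthase, had 9.48, 9.88 and 9.03 CPM in KO with vehicle, against 5.57, 7.22 and 7.23 CPM in WT with vehicle. It too was higher in each KO library, with a log2 fold change of 0.50 ± 0.18 (adjusted p = 0.028). Idi1, the isomerase between these steps, rose by 0.46, and Tm7sf2 (0.35), Nsdhl (0.33) and Lss (0.21) rose among the sterol enzymes. Of the 7 rises, that of Insig2 alone held in each of the 20 alternative settings. The rise of Mvd was lost without KO vehicle replicate 1 (adjusted p = 0.062), and those of Fdps, Idi1, Tm7sf2, Nsdhl and Lss were each lost without at least 4 of the single libraries.

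Falls were found at other steps. Hsd17b7, a reductase of sterol demethylation, had 17.9, 19.1 and 20.2 CPM in KO with vehicle, against 27.1, 28.3 and 21.6 CPM in WT with vehicle. The KO libraries were lower in each case, with a log2 fold change of -0.43 ± 0.10 (adjusted p = 0.0023). Sc5d, the lathosterol desaturase, averaged 98.2 ± 10.6 CPM in KO with vehicle and 131 ± 5.31 CPM in WT with vehicle (SD, n = 3 each), a log2 fold change of -0.41 ± 0.08 (adjusted p = 8.3e-04). Pmvk, the phosphomevalonate kinase, had 15.5, 17.3 and 18.7 CPM in KO with vehicle, against 19.3, 24.4 and 22.0 CPM in WT with vehicle. Its groups lay apart, and the log2 fold change was -0.35 ± 0.10 (adjusted p = 0.0082).

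The largest fall was that of an enzyme of cholesterol storage. Soat2, which esterifies cholesterol in hepatocytes and enterocytes, had 30.1, 18.7 and 22.5 CPM in KO with vehicle, against 44.1, 50.7 and 41.3 CPM in WT with vehicle. All KO libraries were below all WT libraries, and the log2 fold change was -0.93 ± 0.16 (adjusted p = 3.6e-04). Npc1, which moves cholesterol out of lysosomes, averaged 144 ± 12.3 CPM in KO with vehicle and 173.5 ± 9.14 CPM in WT with vehicle (SD, n = 3 each), a log2 fold change of -0.26 ± 0.08 (adjusted p = 0.010). The falls of Soat2, Insig1, Sc5d, Pmvk and Hsd17b7 held in each of the 20 alternatives, and that of Npc1 was lost without KO vehicle replicate 2 (adjusted p = 0.051). In these bulk samples fewer cells of a type and less RNA per cell cannot be told apart. Of 10 hepatocyte markers, 6 were lower and 1 was higher in KO cells. Of the tested markers of other cells, 2 rose and 3 fell among 11 of stellate cells, 2 rose and 1 fell among 12 of Kupffer cells, 1 rose and 1 fell among 12 of endothelial cells, and 4 rose and 1 fell among 7 of bile duct cells. The summed level of Kupffer markers was 462 to 516 CPM in KO with vehicle and 244 to 494 CPM in WT with vehicle, and that of bile duct markers was 516 to 681 CPM in KO and 384 to 595 CPM in WT. Single genes weigh heavily in these sums. In KO against WT with vehicle, Mpeg1 of the Kupffer list averaged 281 against 131.3 CPM and Cd68 69.1 against 109.4 CPM. Of the bile duct list, Spp1 averaged 244.6 against 362.2 CPM and Cldn4 189.2 against 77.0 CPM. The part of the markers in the differences above was not tested.

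With MJ041 on both sides, more genes of the pathway were lower than higher in KO cells. Of the 29 genes 14 were lower and 1 was higher, with a median log2 fold change of -0.22 over the 29 and 0.022 over all tested genes. The genes lower and higher made up 48.3% and 3.45% of the pathway, against 27.6% lower and 26.8% higher among all tested genes. The sterol enzymes accounted for 7 of the falls, the mevalonate enzymes for 2, the regulators for 3 and the transport and storage genes for 2. Of 10 hepatocyte markers, 7 were lower and 1 was higher in KO cells with MJ041, and their summed level was 29390 to 31090 CPM in KO and 59940 to 76910 CPM in WT. Of the tested markers of other cells, 5 rose and 0 fell among 11 of stellate cells, 3 rose and 0 fell among 12 of endothelial cells, 3 rose and 1 fell among 12 of Kupffer cells, and 3 rose and 1 fell among 7 of bile duct cells. Summed levels in KO with MJ041, against WT with MJ041, were 160.7 to 191.6 against 92.9 to 151.9 CPM for stellate markers and 278.6 to 327.5 against 169.6 to 294.6 CPM for endothelial markers. They were 474.9 to 504.4 against 186 to 362.3 CPM for Kupffer markers and 459 to 672.9 against 296.6 to 413.7 CPM for bile duct markers. Single genes weigh heavily in these sums. In KO against WT with MJ041, Alb averaged 18830 against 50440 CPM, Mpeg1 281 against 78.9 CPM and Spp1 231 against 127 CPM. The other way went Cd68 of the Kupffer list (66.2 against 111 CPM) and Sox9 of the bile duct list (22.5 against 44.2 CPM). Cldn4 of the bile duct list averaged 163.5 against 172.6 CPM, with overlapping libraries. The part of these markers in the differences with MJ041 was not tested.

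**Figure D2:**
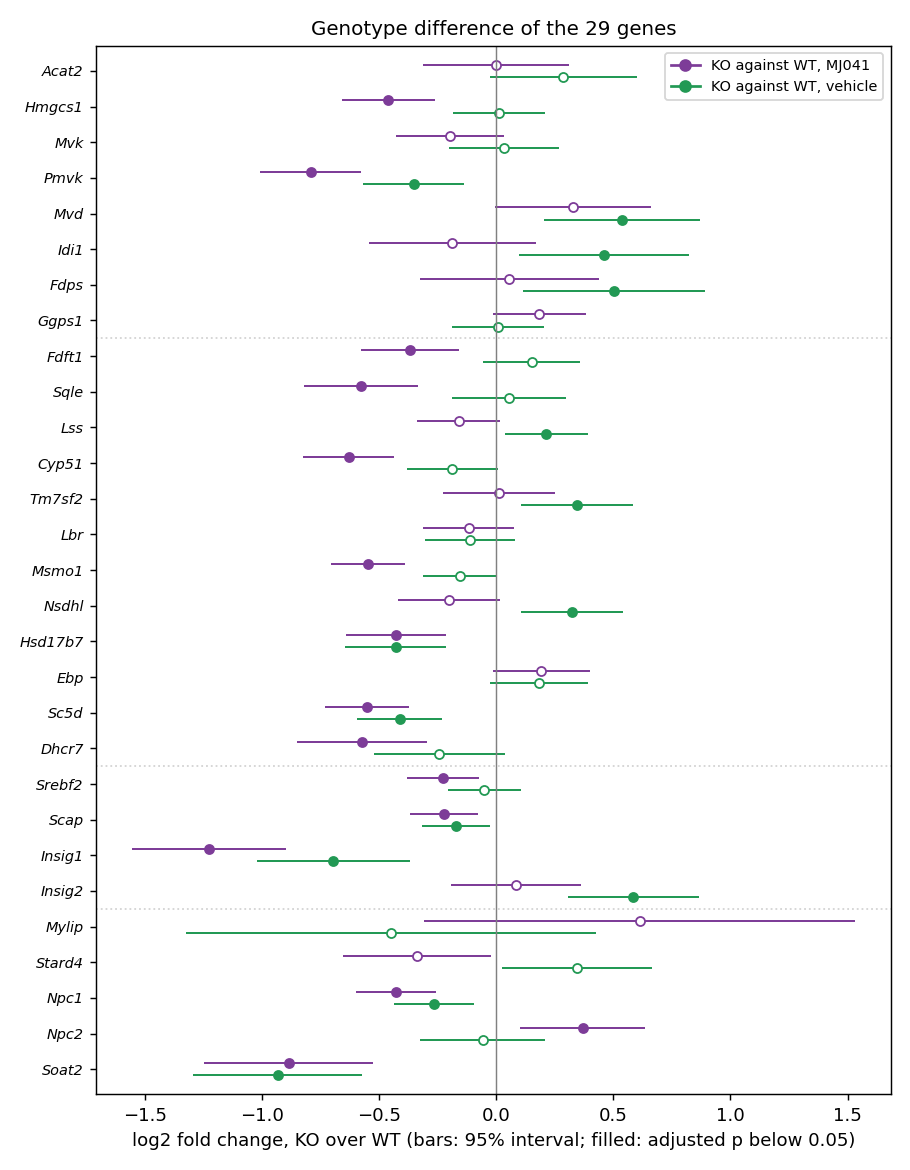
Log2 fold change of KO over WT for the 29 genes with MJ041 (purple) and with vehicle (green), with 95% intervals, filled where the adjusted p was below 0.05. Dotted lines part the mevalonate enzymes, the sterol enzymes, the regulators and the transport and storage genes from top to bottom, and with MJ041 the filled points lie to the left for 14 genes and to the right for Npc2.

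Insig1 fell furthest. It had 26.2, 27.4 and 27.1 CPM in KO with MJ041, against 75.0, 59.6 and 54.1 CPM in WT with MJ041. The lowest WT library stood well above the highest KO library, and the log2 fold change was -1.23 ± 0.15 (adjusted p = 1.8e-05). Soat2 had 27.0, 20.7 and 25.1 CPM in KO with MJ041, against 53.2, 39.2 and 42.1 CPM in WT with MJ041. Again no KO library reached a WT library, with a log2 fold change of -0.89 ± 0.16 (adjusted p = 5.4e-04). Pmvk had 17.1, 16.1 and 17.6 CPM in KO with MJ041, against 30.3, 30.3 and 27.4 CPM in WT with MJ041. The groups lay well apart, and Pmvk fell by 0.79 on the log2 scale (SE 0.10, adjusted p = 1.8e-05).

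Cyp51, the lanosterol 14-alpha demethylase, had 86.4, 89.0 and 89.4 CPM in KO with MJ041, against 138, 153 and 119 CPM in WT with MJ041. All 3 KO libraries were lower, and the log2 fold change was -0.63 ± 0.09 (adjusted p = 5.4e-05). Sqle, the squalene epoxidase that makes the first oxygenation of the sterol branch, had 78.6, 66.6 and 80.1 CPM in KO with MJ041, against 126, 115 and 95.2 CPM in WT with MJ041. It fell by 0.58 on the log2 scale (SE 0.11, adjusted p = 6.6e-04). The other enzymes that fell were Dhcr7 (-0.57), which makes cholesterol from its last precursor, Sc5d (-0.55), the sterol methyl oxidase Msmo1 (-0.55), the mevalonate pathway synthase Hmgcs1 (-0.46), Hsd17b7 (-0.43) and the squalene synthase Fdft1 (-0.37). Mvd, Idi1 and Fdps, which were higher in KO with vehicle, had log2 fold changes of 0.33, -0.19 and 0.06 with MJ041 and did not pass the test.

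Among the regulators, Srebf2 had 97.7, 113.5 and 103.5 CPM in KO with MJ041, against 131, 123 and 115 CPM in WT with MJ041. The groups came close without overlapping, and Srebf2 fell by 0.23 (SE 0.07, adjusted p = 0.014). Scap had 114.5, 118 and 116.5 CPM in KO with MJ041, against 146.5, 139 and 122 CPM in WT with MJ041, and fell by 0.22 (SE 0.07, adjusted p = 0.012). Insig2 had 93.8, 72.6 and 85.6 CPM in KO with MJ041, against 86.9, 86.5 and 64.2 CPM in WT with MJ041. These groups overlapped, and its log2 fold change of 0.09 had a 95% interval from -0.19 to 0.36. Npc1 fell by 0.43, and Npc2 was the gene that was higher, at 207 ± 11.1 CPM in KO with MJ041, against 160.2 ± 24.3 CPM in WT with MJ041 (SD, n = 3 each, adjusted p = 0.021). With vehicle Npc2 averaged 204.5 CPM in KO and 212.7 CPM in WT. The WT libraries given MJ041 had 142.8, 149.8 and 187.9 CPM, against 221.4, 174 and 242.6 CPM in WT with vehicle. These groups overlapped, and the lowest Npc2 levels were those of WT libraries 1 and 2 given MJ041.

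The genotype comparison with MJ041 and that with vehicle share no library. Pmvk, Hsd17b7, Sc5d, Scap, Insig1, Npc1 and Soat2 were lower in both, which is 7 of the 7 genes lower with vehicle and 7 of the 14 lower with MJ041. Over all tested genes 3281 were lower in both, of 4018 lower with vehicle and 4113 lower with MJ041. No pathway gene was higher in both, of 7 higher with vehicle and 1 higher with MJ041. Over all tested genes 3239 were higher in both, of 4108 higher with vehicle and 4005 higher with MJ041. None of the pathway was called in opposite directions, against 20 of all tested genes. With both low-stellate WT libraries left out, which leaves 1 treated WT library that is assumed to vary like the others, some of the falls with MJ041 no longer passed. Calls over the whole table also became fewer in that fit. The falls of Pmvk, Cyp51, Msmo1, Sc5d, Insig1, Npc1 and Soat2 held in each of the 20 alternatives. Their log2 fold changes there lay, for instance, between -0.84 and -0.70 for Pmvk and between -0.73 and -0.43 for Cyp51. The falls of Scap and Srebf2 were also lost without WT MJ041 replicate 1 alone (adjusted p = 0.053 and 0.058), and the rise of Npc2 was lost without any 1 of 4 libraries, with MJ041-treated WT replicate 2 left out giving the highest adjusted p, 0.12.

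The effect of MJ041 was then read within WT cells. Of the 29 genes 4 rose and none fell: Sqle, Pmvk, Cyp51 and the sterol carrier Stard4. They made up 13.8% of the pathway, while 1.19% of all tested genes rose and 1.02% fell. The log2 fold change was positive for 25 of the 29 genes (86.2%), against 55.6% of all tested genes. The median was 0.28 over the 29, against 0.026 over all tested genes. The enzymes were positive in 19 of 20 cases, from 0.03 (Sc5d) to 0.57 (Idi1), and Ggps1, the geranylgeranyl diphosphate synthase, was the exception at -0.17.

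**Figure D3:**
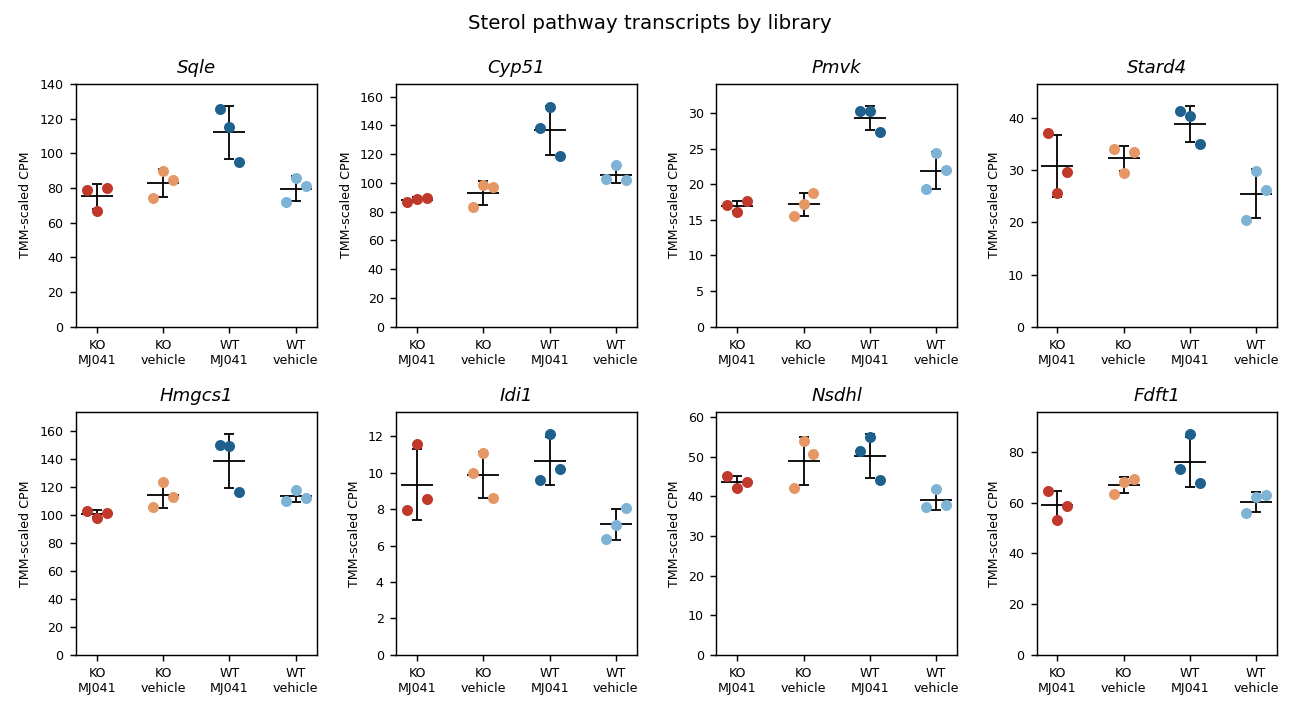
Level of 8 genes (TMM-scaled CPM, linear axis from 0) in each library, with points for libraries, a bar for the group mean and whiskers for 1 SD. The 3 WT libraries given MJ041 lie above the 3 given vehicle for Sqle, Cyp51, Pmvk and Stard4, which passed the test, and for Idi1, Nsdhl and Fdft1, which did not, while the KO groups overlap for most genes.

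Sqle had 126, 115 and 95.2 CPM in WT with MJ041, against 71.9, 86.0 and 81.1 CPM in WT with vehicle. All treated libraries were higher, and the log2 fold change was 0.49 ± 0.11 (SE, n = 3 per group, adjusted p = 0.043). Cyp51 had 138, 153 and 119 CPM in WT with MJ041, against 103, 113 and 102 CPM in WT with vehicle. The groups did not overlap, and the log2 fold change of 0.37 ± 0.09 passed the threshold narrowly (adjusted p = 0.0497). Pmvk had 30.3, 30.3 and 27.4 CPM in WT with MJ041, against 19.3, 24.4 and 22.0 CPM in WT with vehicle. Its treated libraries were again all higher, by 0.42 ± 0.10 on the log2 scale (adjusted p = 0.044). Stard4, which moves cholesterol between membranes and is induced by SREBP2, had 41.5, 40.4 and 35.1 CPM in WT with MJ041, against 20.5, 29.9 and 26.2 CPM in WT with vehicle. The lowest treated library exceeded the highest vehicle library, with a log2 fold change of 0.61 ± 0.15 (adjusted p = 0.0496).

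For 10 of the 29 genes the treated WT libraries lay wholly above the vehicle libraries, and for 1, Ggps1, wholly below, against 13.1% and 9.22% of all tested genes. The 10 were the 4 called genes with Mvk, Idi1, Fdps, Fdft1, Tm7sf2 and Nsdhl. Those that did not pass had values between 0.32 (Tm7sf2) and 0.57 (Idi1), and the adjusted p nearest to the threshold was that of Nsdhl, at 0.070. An unadjusted p below 0.05 was found for 17 of the 29 genes and for 3219 of all 14919. The regulators were all positive and none passed: Insig1 had a log2 fold change of 0.37 (adjusted p = 0.17), Insig2 of 0.36 (0.13), Srebf2 of 0.11 (0.37) and Scap of 0.06 (0.63). Mylip, a ubiquitin ligase that marks lipoprotein receptors for degradation, was low, with 18 to 105 counts a library. It had 1.30, 1.11 and 4.02 CPM in WT with MJ041, against 3.92, 2.69 and 5.80 CPM in WT with vehicle, and did not pass (-0.94, adjusted p = 0.21). Npc2 was at -0.41 (adjusted p = 0.089) and Soat2 at -0.02 (0.96).

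The treated WT libraries did not move as one. The summed level of the 20 enzymes was 1187, 1196 and 1007 CPM in WT with MJ041 and 914.6, 1002 and 924.6 CPM in WT with vehicle. Replicates 1 and 2 were the highest of all 12 libraries, and the third lay just above the highest WT vehicle library. The same replicates 1 and 2 were low in markers of other cells. Summed Kupffer markers were 186, 226 and 362 CPM in WT with MJ041 and 244 to 494 CPM in WT with vehicle. Much of that sum was Cd68 (means of 111.4 and 109.4 CPM) and Mpeg1 (means of 78.9 and 131.3 CPM). Summed endothelial markers were 169.6, 177 and 295 CPM in WT with MJ041 and 255 to 400.2 CPM in WT with vehicle. None of the 11 stellate, 12 Kupffer and 12 endothelial markers tested passed, and 8, 11 and 10 of them had negative log2 fold changes. Of 10 hepatocyte markers none passed and 9 were positive. Their summed level was 76910, 66420 and 59940 CPM in WT with MJ041 and 59020 to 64300 CPM in WT with vehicle. Most of that sum was Alb (means of 50440 and 44810 CPM). Of 7 bile duct markers tested, 1 passed as higher, 4 were positive and 3 negative. Hnf4a stood at 166, 178 and 142 CPM in WT with MJ041 and 121, 137 and 113 CPM in WT with vehicle (0.39, adjusted p = 0.062). The part of cell content in the rises was not tested.

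**Figure D4:**
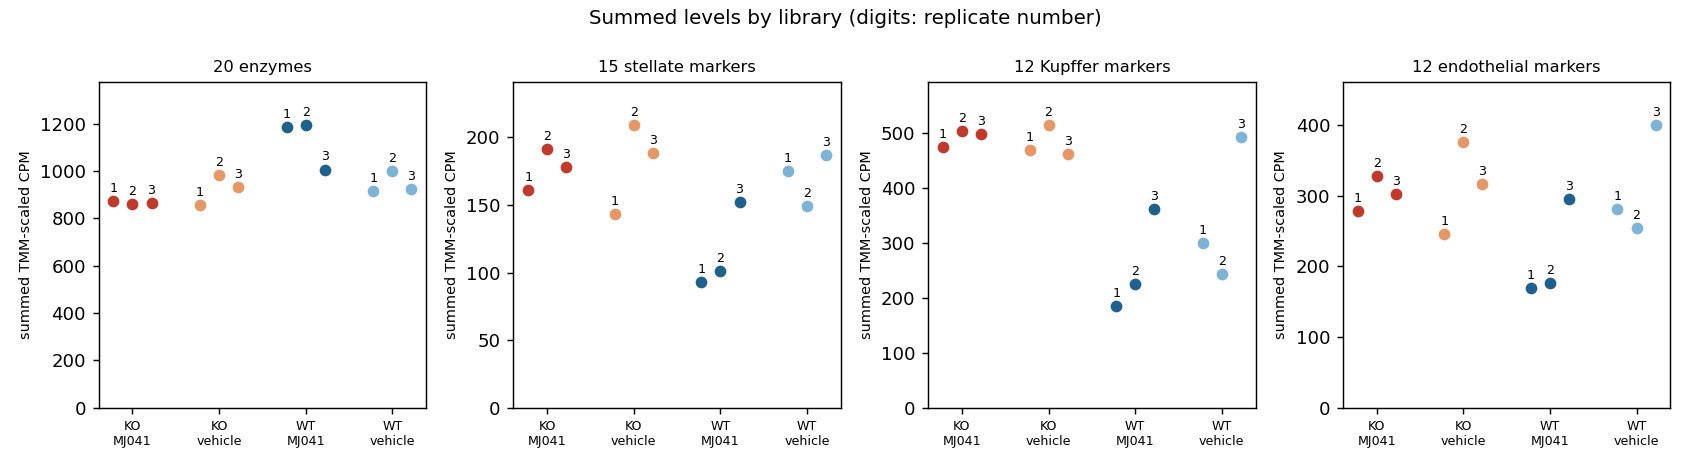
Summed level (TMM-scaled CPM, linear axes from 0) of the 20 enzymes and of 3 marker lists in each library, with the replicate number above each point. WT libraries 1 and 2 given MJ041 are highest for the enzymes, at 1187 and 1196 CPM, and lowest for stellate and endothelial markers.

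Without replicates 1 and 2, which leaves 1 treated WT library that is assumed to vary like the others, no pathway gene and no gene at all was called. The log2 fold changes then were 0.26 for Sqle, 0.17 for Cyp51, 0.32 for Pmvk and 0.46 for Stard4. Without the third treated library 12 genes rose, the 4 named ones included, and 2 fell. That fit called 2059 of 15201 tested genes, against 329 of 14919 with all libraries. None of the 4 calls survived leaving out treated replicate 1 or 2, vehicle replicate 1 or 3, KO MJ041 replicate 2 or 3, or any KO vehicle library (adjusted p from 0.051 to 0.25 over these fits).

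In KO cells given MJ041 none of the 29 genes passed, and none of all tested genes did (0% called, edgeR). An unadjusted p below 0.05 was found for 1 of the 29, Msmo1, and for 414 of all tested genes, and DESeq2 likewise called 0 genes. The median log2 fold change of the 29 was -0.063, against 0.0061 over all tested genes, and the single values lay between -0.18 (Fdft1) and 0.14 (Mvk). Sqle had 78.6, 66.6 and 80.1 CPM in KO with MJ041, against 73.9, 89.8 and 84.5 CPM in KO with vehicle. These groups overlapped, and the 95% interval of its log2 fold change reached from -0.38 to 0.10. Stard4 had 37.2, 25.6 and 29.7 CPM in KO with MJ041, against 34.1, 29.6 and 33.5 CPM in KO with vehicle, with an interval from -0.38 to 0.24. The intervals of Cyp51 (-0.27 to 0.12) and Pmvk (-0.23 to 0.20) also spanned 0.

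For none of the 29 genes did the treated KO libraries lie wholly above the vehicle libraries, and for Hmgcs1 and Msmo1 they lay wholly below, against 5.13% and 4.38% of all tested genes. Hmgcs1 had 103, 97.9 and 102 CPM in KO with MJ041, against 105.7, 124 and 113 CPM in KO with vehicle, a log2 fold change of -0.18 ± 0.09 (adjusted p = 1). Insig1 averaged 26.9 ± 0.65 CPM in KO with MJ041 and 30.1 ± 4.46 CPM in KO with vehicle (SD, n = 3 each). Soat2 averaged 24.3 ± 3.25 CPM in KO with MJ041 and 23.8 ± 5.77 CPM in KO with vehicle. The marker lists were also alike in range, with summed stellate markers of 161 to 192 CPM in KO with MJ041 and 143 to 209 CPM in KO with vehicle.

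**Figure D5:**
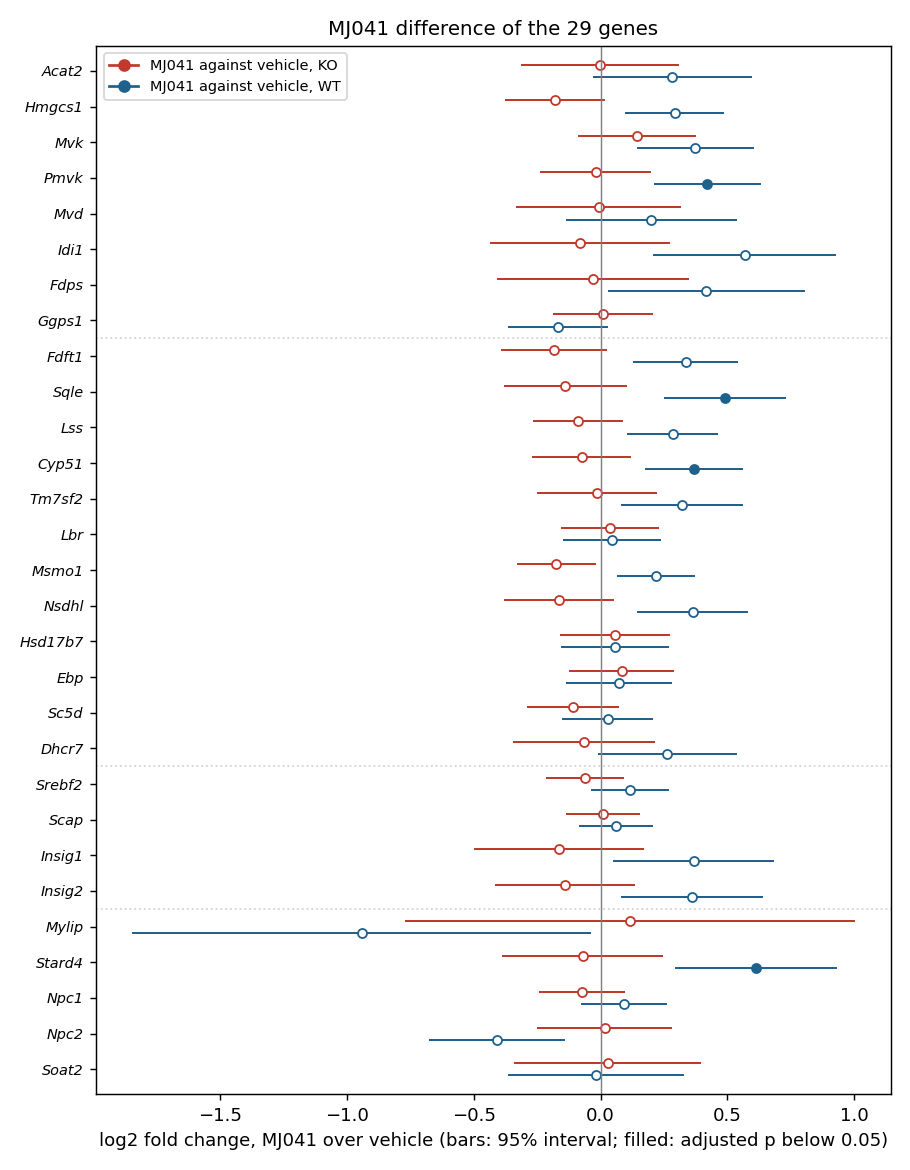
Log2 fold change of MJ041 over vehicle for the 29 genes in KO cells (red) and in WT cells (blue), with 95% intervals, filled where the adjusted p was below 0.05. The filled points are Pmvk, Sqle, Cyp51 and Stard4 in WT cells, and no point is filled in KO cells. In WT cells 25 of 29 points lie right of 0, against 55.6% of all tested genes.

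Whether the response differed between genotypes was tested as an interaction, the log2 fold change of MJ041 in KO cells minus that in WT cells. None of the 29 genes passed, nor did any of the tested genes (0% called in either direction). An unadjusted p below 0.05 was found for 14 of the 29 and for 1980 of all tested genes, and the smallest adjusted p of the pathway was that of Sqle, at 0.14. The interaction was negative for 23 of the 29 genes, with a median of -0.33, against -0.015 over all tested genes. It was positive for 20.7% of the 29 and for 47% of all tested genes. The estimates were -0.63 ± 0.16 for Sqle, -0.68 ± 0.20 for Stard4, -0.44 ± 0.12 for Cyp51 and -0.44 ± 0.14 for Pmvk. Hsd17b7 (0.00), Lbr (-0.01) and Ebp (0.01) lay at 0. A response of MJ041 that passed in WT and not in KO cells was therefore not shown to differ between them. DESeq2 called 5 of the 29 genes, all negative, which were Hmgcs1, Fdft1, Sqle, Msmo1 and Nsdhl, and without the third treated WT library 8 were negative and 1 was positive. DESeq2 called 227 of 12840 genes in all, and the fit without that library called 852 of 15201.

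Partner genes of SREBP processing numbered 12. With vehicle 2 rose and 3 fell in KO cells (16.7% and 25%), against 27.5% and 26.9% of all tested genes. With MJ041 2 rose and 5 fell (16.7% and 41.7%), against 26.8% and 27.6% of all tested genes. Erlin2, a scaffold of sterol-dependent degradation in the endoplasmic reticulum, averaged 77.6 ± 1.25 CPM in KO with vehicle and 110.8 ± 7.21 CPM in WT with vehicle (SD, n = 3 each), a log2 fold change of -0.51 ± 0.06 (adjusted p = 2.0e-05). Mbtps1, the protease that makes the first cut in SREBP2, averaged 110.1 ± 6.87 CPM in KO with vehicle and 87.9 ± 5.57 CPM in WT with vehicle, and rose by 0.33 ± 0.07 (adjusted p = 0.0011). Syvn1, a ubiquitin ligase of the endoplasmic reticulum, rose by 0.56 ± 0.14, to 152 ± 38.2 CPM in KO, against 103 ± 2.26 CPM in WT. The median log2 fold changes of the 12 were 0.03 with vehicle and -0.07 with MJ041.

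The sterol-activated receptor LXR, its partner Rxra and its targets made up a list of 9 genes, so the counts below mix receptor genes with targets. In KO cells with vehicle 5 fell, 1 rose and 3 were not called, with a median of -0.29, and with MJ041 the counts were again 5, 1 and 3, with a median of -0.35. In both comparisons that is 55.6% lower and 11.1% higher, against 26.9% lower and 27.5% higher of all tested genes with vehicle, and 27.6% and 26.8% with MJ041. The one that rose with vehicle was Abca1, the cholesterol exporter that loads nascent HDL, which averaged 194 ± 5.51 CPM in KO with vehicle and 114 ± 13.1 CPM in WT with vehicle (0.76 ± 0.11, adjusted p = 6.3e-05). Srebf1, the relative of Srebf2 that drives fatty acid synthesis, averaged 69.1 ± 4.21 CPM in KO with vehicle and 96.4 ± 3.13 CPM in WT with vehicle (-0.48 ± 0.08, adjusted p = 1.7e-04). Rxra, the partner receptor of LXR, fell by 0.28 ± 0.05. None of the 57 listed partner genes passed in either MJ041 comparison by edgeR (an unadjusted p below 0.05 was found for 4 of them in KO cells and 13 in WT cells, and DESeq2 was not read for these genes).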

How the data were processed

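The authors deposited raw counts of reads per Ensembl gene, without normalization. Per the labels' protocols, total RNA went into a stranded kit and was read on an Element AVITI sequencer. Per the submitters' processing notes, the genome build was mm39 and the tools included STAR 2.7.10b and featureCounts, after FastQC and Trimmomatic 0.34, with DESeq2 also named. Strand and multimapping settings and the annotation release are not given in the sources used here, so overlapping genes and close paralogs may share counts.

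From these counts, edgeR 4.0.16 in R 4.3.3 kept 14919 genes (filterByExpr, minimum count 10), scaled libraries by TMM and fitted the 4 group means in 1 quasi-likelihood model of the 12 libraries. P-values were adjusted by the Benjamini-Hochberg method across the whole table of tested genes, and 0.05 was the threshold. The standard error (SE) is the log2 fold change over the square root of F, and intervals are 95%. Replicates differed by more than sampling noise (chi-square per degree of freedom 4.39 to 14.6). Reads carry no molecular identifiers.

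Alternatives used DESeq2 1.42.0, limma 3.58.1 (voom), other scalings, no filter, a replicate block and libraries left out. The members, gene lists and tests were chosen with earlier results of these data known. Values per library are given for members called with MJ041, for the 3 largest rises and 3 largest falls in KO with vehicle, and for the regulators. Other genes come from 5 fixed lists of 57 genes, with at most 3 named per list by smallest adjusted p. Of the genes this rule takes, 1 is not reported here. Symbols and promoters came from GENCODE and RefSeq tables of GRCm38.p6, with 52081 of 55414 identifiers matched.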

Additional observations from a re-analysis of the deposited data

How the results depend on the processing

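Over 20 alternative settings, 2871 log2 fold changes of the 29 genes were recomputed. Of these 2673 kept their direction and side of the threshold, 97 were no longer called, 101 became called and 0 called values changed sign. Of KO against WT with vehicle, 7 genes were higher and 7 lower, and these counts moved with single libraries left out, to between 2 and 8 higher and between 6 and 9 lower. Of KO against WT with MJ041 (1 higher, 14 lower), single libraries left out gave 0 to 2 higher and 12 to 17 lower. Library totals in place of TMM gave 4 higher, and leaving out both WT libraries low in stellate markers gave 2 higher, of which 0 were the same gene, and 7 lower. The rises with MJ041 in WT cells (4 higher, 0 lower) numbered 2 with median-ratio size factors, 1 with library totals, 13 with no filter on low counts, 9 with DESeq2, 0 with only the groups compared in the fit and 0 without both low-stellate libraries. Falls numbered 2 with no filter and 1 with DESeq2, and single libraries left out gave 0 to 12 rises and 0 to 2 falls. For the interaction (0 in either direction), no filter gave 1 positive and 9 negative genes, DESeq2 gave 5 negative, and single libraries left out gave 0 to 1 positive and 0 to 8 negative. The response in KO cells stayed at 0 genes of the 29 in each of these. Over the whole table MJ041 in WT cells had 329 of 14919 genes called, against 301 with median-ratio size factors, 255 with library totals, 1667 of 30185 with no filter, 906 of 13958 with DESeq2 and 0 in the fits with only the groups compared and without both low-stellate libraries, and the interaction had 0, against 886 with no filter and 227 of 12840 with DESeq2. The cause of these shifts was not tested. Library totals shifted the median of all genes by at most 0.066 on the log2 scale.

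Equal replicate numbers fell short of pairing the libraries by the bar that each same-numbered pair's deviations correlate over 0.1. Over pairs within and between genotypes, 7 of 18 did (-0.10 to 0.50), against 6 of 36 pairs of other numbers (-0.53 to 0.45). Within a genotype, same-numbered pairs had 0.35, 0.46 and 0.04 in KO cells and -0.01, 0.20 and 0.50 in WT cells. Pairs of other numbers lay between -0.44 and 0.11 in KO cells and between -0.53 and 0.45 in WT cells. Pairing of MJ041 with vehicle inside a genotype was not tested. The block below is shared by both genotypes, and no block within a genotype was fitted. The main tests treat the libraries as unpaired, so a pairing inside a genotype, if present, was not used. A fit with the replicate number as a replicate block gave 8 higher and 7 lower in KO with vehicle, 1 and 14 with MJ041, 6 and 0 for MJ041 in WT cells, and 0 elsewhere, and raised the genes called with MJ041 in WT cells over the whole table to 649, against 329 without it. Depth limits Mylip most, at 18 to 105 counts a library.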

Other observations

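Further genes around cholesterol were read from 3 lists, beside 27.5% higher and 26.9% lower of all tested genes in KO cells with vehicle, and 26.8% and 27.6% with MJ041. Of 15 genes of sterol transport and ester turnover, 6 were higher (40%) and 5 lower (33.3%) in KO cells with vehicle. Nceh1, a hydrolase of cholesterol esters, averaged 52.9 ± 2.65 CPM in KO with vehicle and 28.9 ± 2.69 CPM in WT with vehicle (SD, n = 3 each), a log2 fold change of 0.87 ± 0.08. Gramd1b, which carries cholesterol from the plasma membrane to the endoplasmic reticulum, averaged 26.5 ± 0.96 CPM in KO and 15.2 ± 1.02 CPM in WT, and rose by 0.80 ± 0.08. Osbpl8, a lipid exchanger at membrane contacts, averaged 46.4 ± 2.16 CPM in KO and 69.5 ± 1.43 CPM in WT, and fell by 0.59 on the log2 scale. With MJ041, 5 of these genes were higher (33.3%) and 4 lower (26.7%) in KO cells.

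Of 12 genes of the isoprenoid and dolichol branches, 4 were higher (33.3%) and 3 lower (25%) in KO cells with vehicle, and 2 higher (16.7%) and 4 lower (33.3%) with MJ041. Rabggta, a subunit of the enzyme that prenylates Rab proteins, averaged 30.5 ± 1.31 CPM in KO with vehicle and 43.3 ± 1.27 CPM in WT with vehicle, a log2 fold change of -0.50 ± 0.07. Fntb, a farnesyltransferase subunit, rose by 0.41 ± 0.08, and Rce1, a protease of prenylated proteins, fell by 0.35. Of 9 electron donors and accessory factors, 2 were higher (22.2%) and 2 lower (22.2%) with vehicle, and 1 higher (11.1%) and 4 lower (44.4%) with MJ041. Acat1, the mitochondrial thiolase of ketone metabolism, averaged 69.2 ± 4.96 CPM in KO with vehicle and 36.6 ± 4.20 CPM in WT with vehicle, a log2 fold change of 0.92 ± 0.13. Por, which supplies electrons to cytochrome P450 enzymes and squalene epoxidase, averaged 353 ± 50.5 CPM in KO with vehicle and 512 ± 57.2 CPM in WT with vehicle (-0.53 ± 0.10).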
